A study of Mus musculus with 3 samples.

Results

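The mouse Hox genes were followed in 3 RNA sequencing libraries of sorted back-skin epidermis. A gene was included when its symbol, looked up from its Ensembl identifier, was Hoxa, Hoxb, Hoxc or Hoxd followed by a number. This gave 39 genes of 49120 gene symbols in the files, and all 39 had the same coordinates in the files and in GENCODE M21 (mm10). The cells came from wild-type C57BL/6 mice of 7 weeks whose hair follicles were in the second telogen, the resting phase of the hair cycle. No transgene or drug treatment is named for any group. The epidermis was lifted from the dermis with the protease thermolysin, and the cells were sorted with antibodies against CD34 and the integrin Itga6. CD34 marks stem cells of the bulge, the part of the resting follicle where its stem cells lie. CD34-negative cells (N) hold all other sorted cells of the epidermis, basal bulge cells (B) were CD34+ with high Itga6, and suprabasal bulge cells (S) were CD34+ with low Itga6. Each library was made from the pooled RNA of 4 mice, so n = 1 per group. No difference below has a replicate check, no test across samples was possible, and every value describes these libraries.

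Hox genes encode transcription factors with a homeodomain, the fold that binds DNA. They sit in 4 clusters, and genes at the same place in different clusters (paralogs) carry the same number. Genes with low numbers are used toward the head of the embryo and genes with high numbers toward the tail, and skin cells keep part of this positional pattern in the adult. Hox proteins bind DNA together with TALE cofactors of the Pbx, Meis and Pknox families, and Polycomb proteins keep unused Hox genes silent. Hoxc13 has a further role in the follicle, where it is needed for the keratins of the hair shaft.

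The Hoxa cluster spans 105 kb of chromosome 6 (52155590 to 52260880, 11 genes) and the Hoxb cluster 174 kb of chromosome 11 (96194316 to 96368256, 10 genes). The Hoxc cluster spans 116 kb of chromosome 15 (102921103 to 103036852, 9 genes) and the Hoxd cluster 96.8 kb of chromosome 2 (74668310 to 74765142, 9 genes). Within each cluster all Hox genes lie on 1 strand. Levels are FPKM (fragments per kilobase of a transcript, scaled per M fragments mapped, where M is mega), which are corrected for gene length. They were divided by 1 factor per library and are called scaled FPKM. Depth was 35.3 M fragments in N, 31.3 M in S and 32.7 M in B. Mitochondrially encoded genes held 31.4%, 83.5% and 36.2% of the summed FPKM of N, S and B, and a single transfer RNA gene, mt-Tl1, held 71.1% in S, so the totals were not used for scaling. The sorted cells carried epidermal markers, with Krt5, a keratin of basal keratinocytes, at 818, 959 and 810 scaled FPKM in N, S and B. Other keratins of the 6 keratinocyte markers were not even across the libraries. In the same order, Krt14 (588, 12.7 and 277), Krt1 (258, 13.3 and 140) and Krt10 (372, 55.9 and 233) were lowest in S. The remaining markers, Trp63 and Cdh1, differed less. Cd34, a gene of the sort itself, stood at 0.201 in N, against 215 in S and 144 in B.

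Of the 39 Hox genes, 20 reached 1 scaled FPKM in at least 1 library, with 8 genes in N, with 18 in S and 14 in B. The other 19 stayed below 1 in all 3 libraries, and 8 of these were listed at 0 throughout. Summed over all 39 genes, the Hox level was 31.6 scaled FPKM in N, compared with 96.5 in S and 76 in B. The sum was 3.06-fold higher in S and 2.41-fold higher in B than in N, and 1.27-fold higher in S than in B. Statements on S hold for this scaling. With all libraries brought to the same total, which in S is mostly mt-Tl1, the Hoxa sum was 13.9 in S against 33.8 in N, the sums of all 4 clusters were lower in S than in B, and 11 Hox genes were lower in S than in B. In bulk libraries, fewer cells of a type and less RNA per cell cannot be told apart, and N is a mixture of several epidermal cell types.

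**Figure D1:**
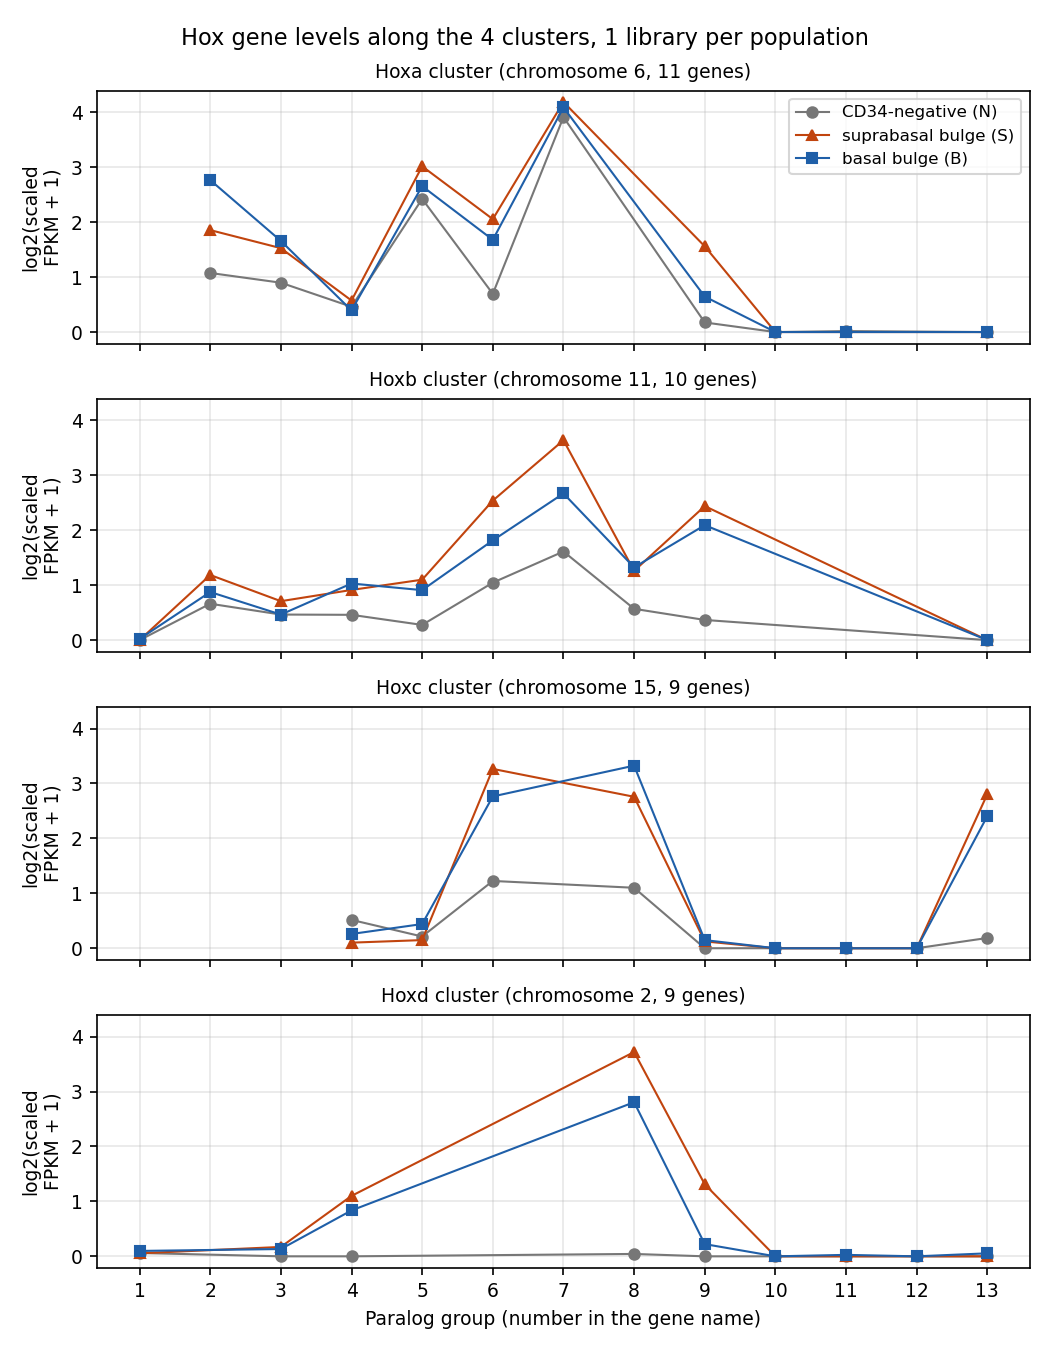
Level of the Hox genes reported here, as log2(scaled FPKM + 1), against its paralog number, with 1 panel per cluster and 1 point per library (n = 1 per population). Lines join the genes of 1 library and carry no value of their own. The bulge libraries lie above N over most of Hoxb, and clearly so at Hoxc6, Hoxc8, Hoxc13 and Hoxd8. The 3 libraries meet at Hoxa7, and levels are at or near 0 beyond paralog group 9 in every cluster except at Hoxc13.

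Hoxd8 was almost unread in N, while Hoxa5 and Hoxa7 were read in all 3 populations. The sequence before the start of Hoxd8 and Hoxa5 and the part before Hoxd9 that no exon covers are shown for orientation, from RefSeq (GRCm38.p6), 5′ to 3′ on the strand of the gene. Capitals mark the CCAAT box, a promoter motif, or its reverse complement ATTGG.
Hoxd8, chr2:74704365-74704614, plus strand: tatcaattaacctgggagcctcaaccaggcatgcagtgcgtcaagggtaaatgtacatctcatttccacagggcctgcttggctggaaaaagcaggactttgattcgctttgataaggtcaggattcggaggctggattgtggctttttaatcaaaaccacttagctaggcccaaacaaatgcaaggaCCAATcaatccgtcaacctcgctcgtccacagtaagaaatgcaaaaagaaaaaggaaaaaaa
Hoxd9, chr2:74697587-74697726, plus strand: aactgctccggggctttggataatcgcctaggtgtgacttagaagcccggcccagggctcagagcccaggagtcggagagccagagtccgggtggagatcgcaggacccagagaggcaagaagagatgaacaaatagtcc
Hoxa5, chr6:52204588-52204837, minus strand: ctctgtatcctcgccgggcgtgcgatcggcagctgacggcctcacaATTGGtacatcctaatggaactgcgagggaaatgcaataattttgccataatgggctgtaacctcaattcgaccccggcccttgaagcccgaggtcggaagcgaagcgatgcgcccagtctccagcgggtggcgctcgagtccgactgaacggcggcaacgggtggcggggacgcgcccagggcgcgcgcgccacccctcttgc
The Hoxd8 stretch holds 6 CG dinucleotides and 44.4% G or C in 250 bases, and the Hoxa5 stretch 28 and 63.6%. The Hoxd9 stretch of 140 bases holds 6 and 58.6%, and the whole Hoxd9 window of 250 bases holds 13 CG dinucleotides. For comparison, windows of 250 bases held a median of 6 CG dinucleotides over 32851 promoters of all genes and 12.5 over the 24 promoters found for 22 Hox genes. CCAAT, searched on both strands, occurs in 33.8% of all windows and in 14 of the 24 Hox windows (58.3%). GGGCGG occurs in 32.7% of all windows and in 10 Hox windows (41.7%), and TATAAA in 12.4% and in 4 (16.7%). TAATTA, a core bound by many homeodomains, occurs in 4.84% and in 2 (8.33%), and TGATNNAT, the shape of a paired Pbx and Hox site, in 7.68% and in 4 (16.7%). A match is a run of letters and not a bound site.

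Hoxa7, which specifies thoracic identity in the embryo, was the most abundant Hox gene per length in every library. Its level was 14.1 scaled FPKM in N, against 17.2 in S and 16 in B, on an estimated 1579, 1431 and 1479 fragments. S stood 1.22-fold (95% counting interval 1.14 to 1.32) and B 1.14-fold (1.06 to 1.22) above N, and the interval of S over B, 0.999 to 1.16, includes 1. These intervals reflect counting error alone; neither amplification nor variation among mice enters them. Hoxa7 made up 44.6% of the Hox sum in N, with 17.9% in S and 21.1% in B. Without it the sum was 17.5 in N, compared with 79.3 in S and 60.0 in B, so the remaining genes differed more between populations than the total shows. Of its exon bases, 20.4% also lie in exons of the antisense gene Hoxaas3 (1.35, 1.33 and 2.29 scaled FPKM in N, S and B), and a Nextera library does not tell strands apart.

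Hoxa5, a gene of cervical and lung patterning, was the second most abundant Hox gene in N at 4.37 scaled FPKM, against 7.10 in S and 5.31 in B. S was 1.63-fold (1.40 to 1.89) and B 1.21-fold (1.04 to 1.42) above N. Hoxa7 and Hoxa5 were the abundant members with the smallest spread over the 3 populations.

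The genes at the low-numbered end of Hoxa, which pattern the hindbrain and neck of the embryo, included Hoxa2 and Hoxa3. Hoxa2 stood at 1.11 scaled FPKM in N, against 2.62 in S and 5.81 in B. B was 5.24-fold (4.08 to 6.81) above N and 2.22-fold (1.81 to 2.73) above S. Gm28308, a gene on the same strand, shares 15% of its exon bases. Hoxa3 stood at 0.864, 1.88 and 2.16 in N, S and B, with the bulge libraries more than 2-fold above N and a counting interval between them that includes 1, and 27.1% of its exon bases are shared with other genes.

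Hoxa6 and Hoxa9, on either side of Hoxa7, differed more between populations than Hoxa7 did. Hoxa6 stood at 0.620 scaled FPKM in N, compared with 3.16 in S and 2.20 in B. Hoxa9 stood at 0.129 in N, against 1.95 in S and 0.564 in B, which put S 15.1-fold (10.3 to 23.2) above N and 3.46-fold (2.75 to 4.37) above B. The next gene, Hoxa10, lies 107 bp beyond Hoxa9 in the annotation and was listed at 0 in all 3 libraries, as was Hoxa13, and Hoxa11 rested on about 1 fragment in N. In S, the only library with Hoxa9 above 1, the edge of the read part of the cluster thus lay between neighbouring genes, Hoxa9 and Hoxa10. In N and B the level had already fallen below 1 at Hoxa9, from 14.1 and 16 at Hoxa7.

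In the Hoxb cluster all 7 named genes were lowest in N. Hoxb7 led the cluster at 2.06 scaled FPKM in N, with 11.5 in S and 5.37 in B. S was thus 5.56-fold (4.56 to 6.83) above N and 2.14-fold (1.84 to 2.49) above B. Hoxb6 followed the same order at 1.07, 4.82 and 2.52 in N, S and B. Hoxb9, the last member before a gap of 74.0 kb to Hoxb13, stood at 0.290 in N, compared with 4.43 in S and 3.27 in B. S was 15.3-fold (10.4 to 23.1) and B 11.3-fold (7.66 to 17.1) above N. The other members were lower throughout. Hoxb2 stood at 0.583, 1.28 and 0.836, and Hoxb5 at 0.212, 1.15 and 0.880, in N, S and B. Of the exon bases of Hoxb2, 27.3% also lie in exons of the antisense gene Hoxb3os. Hoxb4 stood at 0.377, 0.884 and 1.04, and Hoxb8 at 0.485, 1.40 and 1.5. For Hoxb4, Hoxb5 and Hoxb8 the counting intervals between the bulge libraries include 1. Hoxb13 was listed at 0 in all libraries.

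In the Hoxc cluster, the genes with signal lay in 2 separate blocks in the bulge libraries. Hoxc6 stood at 1.34 scaled FPKM in N, against 8.62 in S and 5.79 in B. Hoxc8, which patterns the thoracic skeleton, stood at 1.14 in N, with 5.76 in S and 9.02 in B. B was 7.88-fold (6.53 to 9.58) above N and 1.56-fold above S (S over B 0.639, 0.569 to 0.717), so Hoxc8 shared with Hoxa2 a level higher in B than in S. Across 5507 bp, Hoxc9 was near 0 in all libraries (0, 0.0901 and 0.108 in N, S and B), and Hoxc10, Hoxc11 and Hoxc12 were listed at 0. Hoxc13, the hair gene at the far end of the cluster, was read again, 7942 bp past Hoxc12. It stood at 0.138 in N, compared with 6.00 in S and 4.30 in B, on an estimated 13.3, 426 and 340 fragments. S was 43.3-fold (25.1 to 82.1) and B 31.1-fold (17.9 to 59.0) above N, and S was 1.39-fold (1.21 to 1.61) above B. Hoxc13 was thus the only gene numbered 10 or above that reached 1 in any library. Hoxc4 and Hoxc5 stayed below 0.5 in all 3 libraries, and Hoxc4 was highest in N (0.430, against 0.0731 in S and 0.197 in B).

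The Hoxd cluster was close to unread in N. Hoxd8 stood at 0.0307 scaled FPKM in N, against 12.2 in S and 6.00 in B, on an estimated 3.28, 965 and 528 fragments. The ratio of S to N was 397 (135 to 1929) and that of B to N 195 (66.5 to 951), with the width of the intervals set by the few fragments of N. S was 2.03-fold (1.83 to 2.26) above B. Hoxd8 ranked 23rd of the 39 Hox genes in N, 2nd in S and 3rd in B. Hoxd9 was listed at 0 in N, and stood at 1.48 in S and 0.167 in B, an 8.89-fold difference between the bulge libraries (4.74 to 18.4). Hoxd4 was close to 0 in N and stood at 1.14 in S and 0.785 in B, but 52.3% of its exon bases are shared with other genes, Hoxd3 among them, so its level is uncertain. Hoxd10, 2621 bp past Hoxd9, and Hoxd12 were listed at 0, and Hoxd11 and Hoxd13 rested on an estimated 2.52 and 3.08 fragments in B and were at 0 elsewhere.

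**Figure D2:**
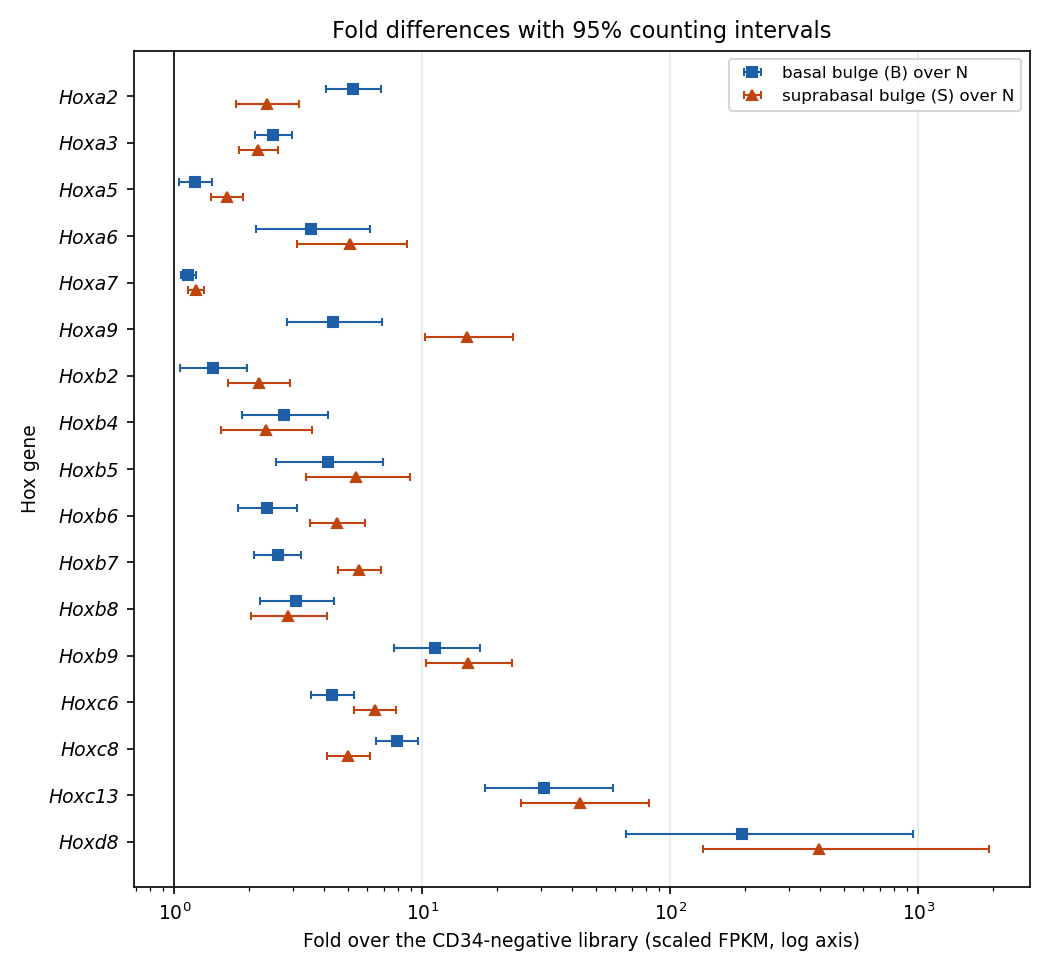
Fold of the basal (B) and suprabasal (S) bulge library over the CD34-negative library (N) in scaled FPKM, on a log axis, for 17 of the Hox genes described in the text that have fragments in N (n = 1 per population). Bars are 95% intervals of counting error only. All 17 genes drawn lie to the right of 1, Hoxa7 and Hoxa5 lie nearest to it, and Hoxd8 lies farthest away.

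Counted over all 39 genes with no filter, 7 were higher in B than in N by at least 2-fold on log2(scaled FPKM + 1) and 0 were lower. Over all 49120 symbols, 2% were higher and 2.03% lower in that comparison. In S against N, 11 of the 39 were higher and 0 lower, against 2.52% and 3.12% of all symbols. These 11 are Hoxa6, Hoxa9, Hoxb6, Hoxb7, Hoxb9, Hoxc6, Hoxc8, Hoxc13, Hoxd4, Hoxd8 and Hoxd9. The 7 are Hoxa2, Hoxb7, Hoxb9, Hoxc6, Hoxc8, Hoxc13 and Hoxd8. The 2 comparisons share the N library. Hoxb7 in B is close to the limit, with a log2 ratio of 1.06 and of 0.94 in the values as deposited. Since 39 genes include many at 0 that cannot differ, the median log2 ratio over all 39 was 0.18 in B against N and 0.24 in S against N, with a median of 0.00 over all symbols.

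Of the 39, 13 had a mean of at least 1 scaled FPKM over the 3 libraries. That filter keeps genes through the library in which they are high, so their counts are a description only. Among these 13, 7 were higher in B than in N by the same 2-fold rule and 8 were higher in S, and 0 were lower in either. Regardless of size, all 13 stood above N in each bulge library. Over the 11575 genes that passed the same filter, 7.27% were higher and 7.1% lower in B, and 9.56% were higher and 10.9% lower in S. The median log2 ratio of the 13 was 1.06 in B and 1.49 in S, against -0.04 and 0.02 over all 11575 genes. All 13 have a mean between 1 and 20, and over the 9935 genes in that range the shares were 7.36% higher and 6.8% lower in B, and 9.49% higher and 10.8% lower in S.

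The 2 bulge libraries differed less from each other, except when brought to the same total, where 11 genes were lower in S. With no filter, 1 of 39 genes, Hoxd9, was higher in S than in B by the same rule and 0 were lower, against 1.07% and 1.62% of all symbols. Of the 13 genes that passed the filter, 0 differed, against 3.89% higher and 5.93% lower among the 11575 genes, and their median log2 ratio was 0.36, against 0.06. In the range of 1 to 20 the shares were 3.83% and 5.99%. By counting intervals on the scaled values, 12 of the 20 genes that reached 1 scaled FPKM were higher in S, and Hoxa2 and Hoxc8 were among those higher in B. For 5 the interval includes 1. The highest level of the 3 libraries was in S for 14 of the 20 genes and in B for 5.

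**Figure D3:**
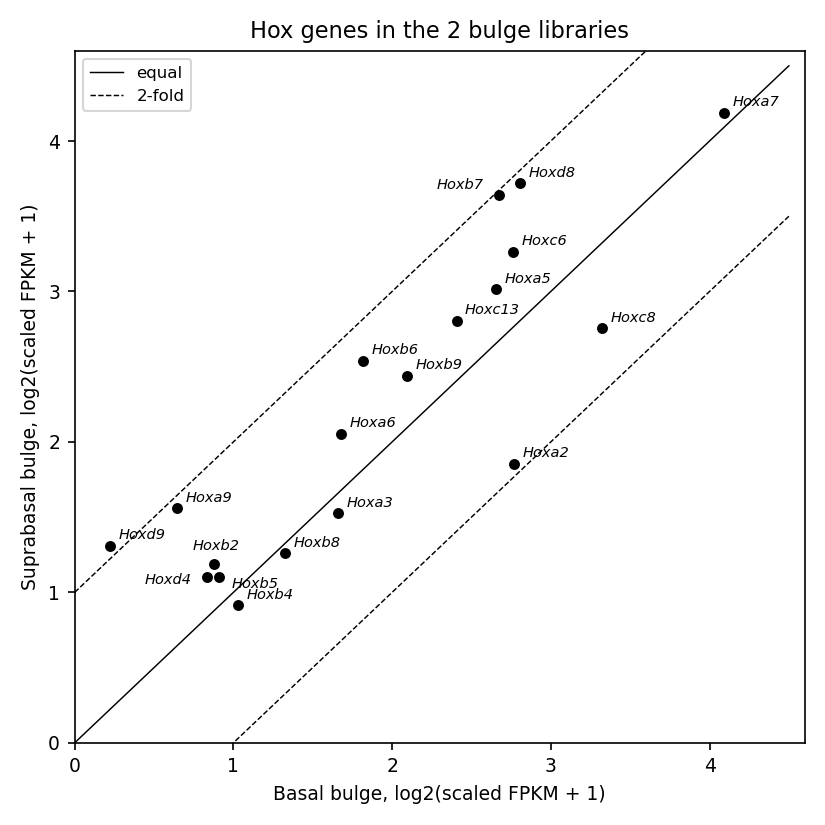
Level of the Hox genes described in the text in the suprabasal against the basal bulge library, both as log2(scaled FPKM + 1), 1 library each. The solid line marks equal levels and the dashed lines a 2-fold difference on this scale. Hoxd9 lies beyond the upper dashed line, and Hoxa2 and Hoxc8 lie farthest below the solid line.

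The clusters contributed unequally to the Hox sum. The Hoxa sum was 22.8 scaled FPKM in N, with 34.9 in S and 33.3 in B, which is 72.3% of all Hox signal in N, compared with 36.1% in S and 43.7% in B. The Hoxb sum was 5.46, 26.1 and 15.8, and the Hoxc sum 3.21, 20.6 and 19.8, in N, S and B. The Hoxd sum was 0.0739 in N, against 15.0 in S and 7.17 in B, and its share was 0.234%, 15.5% and 9.43%. By position, paralog groups 1 to 3 summed to 4.24 in N, with 7.01 in S and 10.2 in B, and were the one class with B above S. Hoxa2 had the largest difference among them (2.62 in S and 5.81 in B). Hoxb2, Hoxb3 and Hoxd3 were higher in S, so the order was not shared by the whole class. Groups 4 to 8 held most of the signal everywhere, at 26.7, 75.6 and 57.3. Groups 9 to 13 summed to 0.570, 13.9 and 8.47, a share of 1.81% in N, compared with 14.4% in S and 11.1% in B. The 4 most abundant genes were Hoxa7, Hoxa5, Hoxb7 and Hoxc6 in N, Hoxa7, Hoxd8, Hoxb7 and Hoxc6 in S, and Hoxa7, Hoxc8, Hoxd8 and Hoxa2 in B. They held 69.2% of the Hox sum in N, against 51.3% in S and 48.5% in B.

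**Figure D4:**
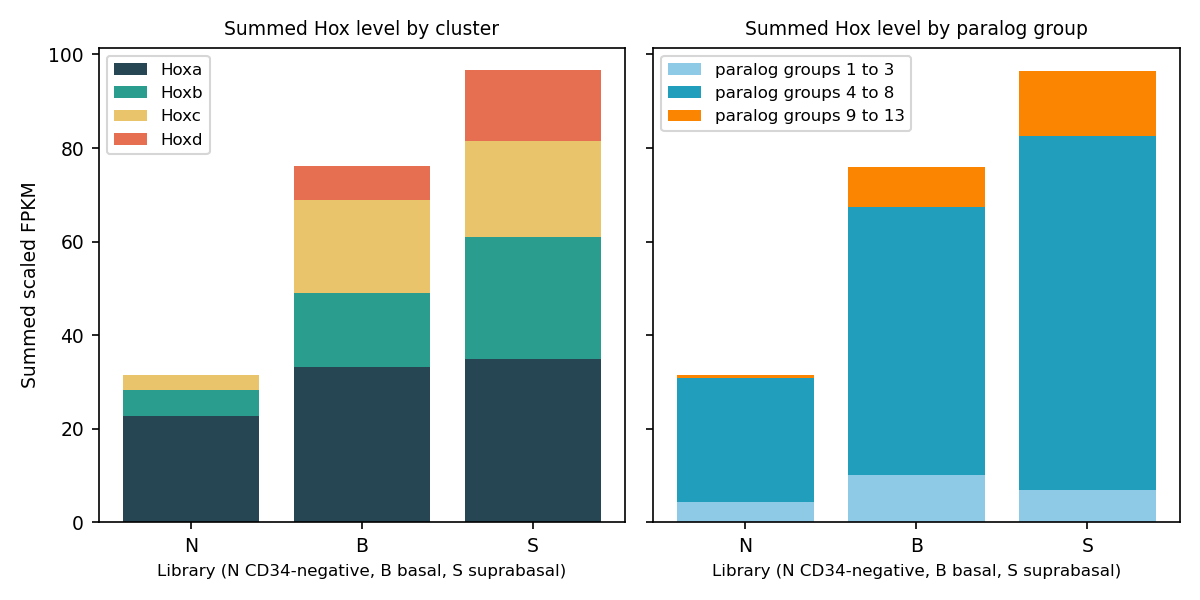
Summed scaled FPKM of all 39 Hox genes in each library, split by cluster (left) and by paralog group (right), 1 library per population. The bars reach 31.6 in N, with 76 in B and 96.5 in S, with Hoxd and groups 9 to 13 too thin to see or nearly so in N.

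The 11 genes below 1 in all libraries but not at 0 throughout were Hoxa4, Hoxa11, Hoxb1, Hoxb3, Hoxc4, Hoxc5, Hoxc9, Hoxd1, Hoxd3, Hoxd11 and Hoxd13, and none exceeded 0.635 scaled FPKM. The 8 listed at 0 in all libraries were Hoxa10, Hoxa13, Hoxb13, Hoxc10, Hoxc11, Hoxc12, Hoxd10 and Hoxd12, all of them numbered 10 or above. A listed 0 is not always an absent transcript in these files. Rpl22, a ribosomal protein gene that every cell uses, was at 845 and 552 in N and S and listed at 0 in B.

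Between the first and the last Hox gene of the clusters lie 46 other annotated genes, most of them non-coding. Of these, 10 reached 1 scaled FPKM in any library and 26 were listed at 0 in all. Several ran beside their Hox neighbours. Gm53, a long non-coding gene within Hoxb, stood at 1.21 in N, compared with 7.89 in S and 5.86 in B, the order of Hoxb7. Hoxb3os stood at 0.314, 1.16 and 0.993, and Hoxb5os at 0.170, 1.17 and 0.981. Hoxd3os1, an antisense gene whose span covers the Hoxd8 promoter stretch printed above, stood at 0.0826 in N, against 4.26 in S and 3.12 in B. Exon bases are shared by Hoxb3os with Hoxb2 and Hoxb3 (52.9% of those of Hoxb3), and by Hoxd3os1 with Hoxd3 and Hoxd4. Reads of shared bases cannot be separated without strand information, so these levels are not independent of those Hox genes. Within Hoxa, Gm15050 stood at 0.946, 0.958 and 2.27. Gm27477 (19.1, 11.8 and 12.1) and Gm27868 (22.4, 0 and 0.437) are short, and short transcripts get inflated FPKM values. Of the 6 microRNA genes in the clusters with a Mir symbol, 5 were listed at 0 in all libraries, and Mir196a-1 was listed at 0 in N and S and at 9.68 in B. Gm44463 within Hoxd, also annotated as a microRNA gene, was listed at 0 in all libraries. These libraries do not select small RNA, so they measure no mature microRNA.

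In the counts from here on, higher, lower and differed refer to the size rule, at least 2-fold on log2(scaled FPKM + 1). Among the 9 TALE cofactors, 7 had a mean of at least 1, and 2 were higher and 0 lower in B than in N, against 7.27% higher and 7.1% lower among all 11575 measured genes. Pbx3 stood at 2.46, 4.97 and 9.28 scaled FPKM in N, S and B, which is 3.78-fold (3.44 to 4.15) above N in B. Pknox2 stood at 0.159, 1.58 and 2.70, and was 17-fold (13.2 to 22.3) above N in B. In S against N, 1 was higher (Pknox2) and 1 lower (Meis2, at 2.32 in N, compared with 0.482 in S and 1.29 in B), and 0 differed between the bulge libraries. Meis1 stood at 4.22, 7.50 and 6.23. Pbx3 and Pknox2 were thus highest in B.

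Of the 17 Polycomb proteins, 15 were measured. In B against N, 0 were higher and 1 lower (Phc1, at 2.67 in N, against 0.549 in S and 0.560 in B). In S against N, 3 were higher and Phc1 was lower, against 9.56% higher and 10.9% lower among all measured genes. The 3 were Cbx2 (0.550 in N, with 2.64 in S and 1.55 in B), Cbx7 (0.600, 2.35 and 2.01) and Bmi1 (3.79, 10.1 and 5.84). Rnf2, the ubiquitin ligase of Polycomb repressive complexes, was the most abundant of those named, at 17.3, 19.4 and 15.4. Ezh2, which writes the repressive histone mark, stood at 16.6, 12.3 and 9.30. All 10 proteins of the opposing Trithorax group and its associated demethylases were measured, and 0 differed by the size rule in any comparison. With these shares of all measured genes, few of 10 would be called, so nothing particular to the group is read from the 0. Dpy30 led them at 32.1, 29.0 and 25.9.

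**Figure D5:**
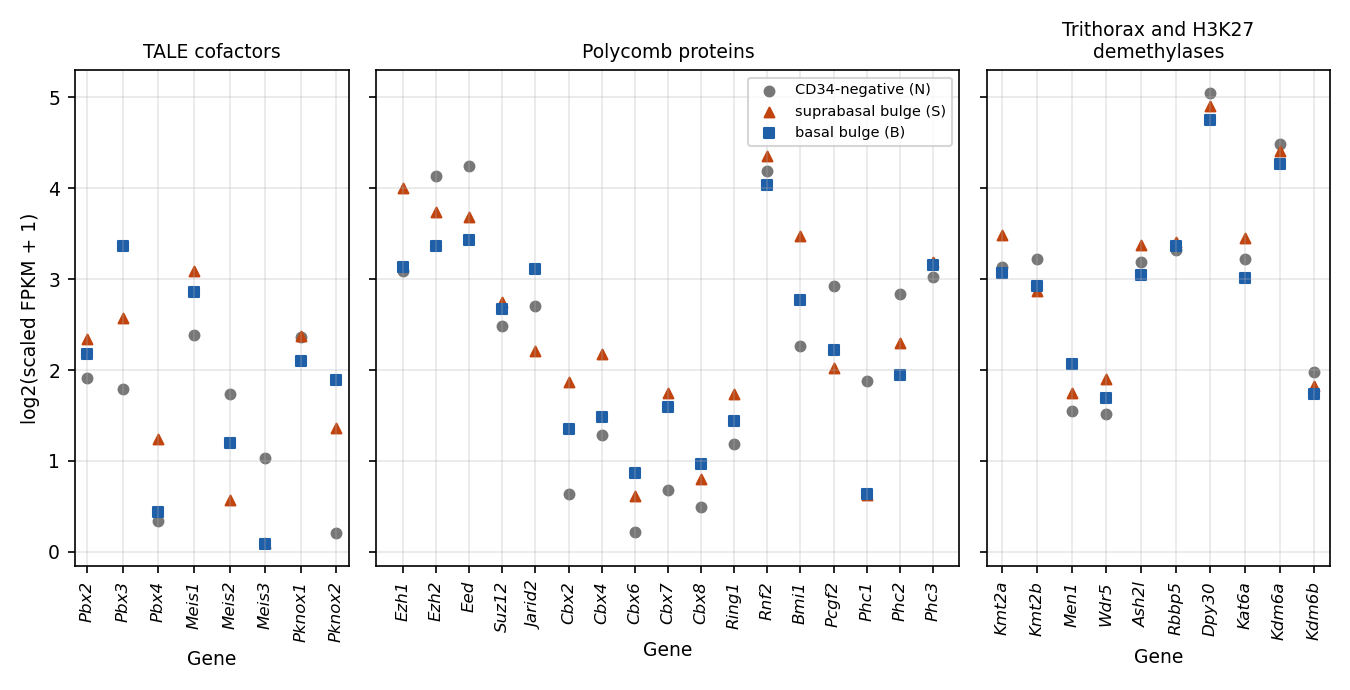
Levels of the reported TALE cofactors, Polycomb proteins and Trithorax proteins with histone demethylases, as log2(scaled FPKM + 1), 1 point per library (n = 1 per population). Pbx3 and Pknox2 are highest in the basal bulge, Cbx2 and Bmi1 in the suprabasal bulge, and Phc1 in N.

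Retinoic acid receptors and Cdx factors set Hox levels in the embryo. Of these 9 genes, 4 were measured and 0 differed in any comparison. Rxra stood at 18.9, 23.1 and 19.0 in N, S and B, Rarg at 15.4, 15.7 and 16.9, and Cdx1 and Cdx4 were listed at 0 throughout. Of 11 genes that flank the clusters, 7 were measured and 0 differed by the size rule in any comparison. Skap2, next to Hoxa, stood at 56.0, 75.2 and 51, and Mtx2, next to Hoxd, at 16.8, 31.9 and 24.1, while Evx1 and Evx2, which adjoin Hoxa and Hoxd, were listed at 0. The median log2 ratios of the 7 flanking genes were 0.30 in B and 0.57 in S against N. Of all measured genes, 7.27% were higher and 7.1% lower in B than in N. The shares were 9.56% and 10.9% in S against N, and 3.89% and 5.93% in S against B. With these shares, few of 4 or of 7 genes would be called, so nothing particular is read from either 0.

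Of 13 hair shaft genes, 12 were in the files and 2 measured. Krt32 stood at 8.91, 11.9 and 3.31 in N, S and B, and Foxn1, a regulator of hair keratins, at 0.962, 3.74 and 0.753. Both were higher in S than in B, Krt32 was lower in B than in N, and Foxn1 was higher in S than in N. Of 16 other homeobox genes of skin, 9 were measured, with 3 higher and 2 lower in B than in N, 4 higher and 2 lower in S than in N, and 1 higher and 2 lower in S than in B. The shares of all measured genes were 7.27% and 7.1% in the first of these comparisons, 9.56% and 10.9% in the next, and 3.89% and 5.93% between the bulge libraries. Lhx2, a bulge stem cell factor, stood at 0.911, 56.1 and 35.0, and Hopx at 55.2, 182 and 115. Satb1 ran the other way at 36.0, 3.44 and 10.1, as did Cux1 at 16.6, 4.68 and 5.43. The direction against N was therefore not shared by all homeobox genes.

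Dermal fibroblasts also use Hox genes, and some of their markers differed between the libraries. Over 13 fibroblast markers the summed level was 1.34 scaled FPKM in N, compared with 35.8 in S and 25.2 in B. Of these, 4 were measured, with 3 higher in B and 3 higher in S than in N by the size rule. Col6a1 made up most of it, at 0.242, 25.9 and 13.9, followed by Col6a2 at 0.0258, 5.77 and 7.28, and Col1a2 stood at 0.103, 1.34 and 1.77. Vim, also measured, was 3.03-fold above N in S and 3.52-fold in B. The defining markers Col1a1, Col3a1, Dcn, Lum, Pdgfra and Dpt, named after their values were seen, stayed below 0.5 in all 3 libraries. Prrx1 and Twist2 were listed at 0 in N and S. Within that limit, Pdgfra was 70.9-fold (19.2 to 592) above N in S and 12.4-fold (3.09 to 108) in B. Col1a1 was 9.03-fold (2.71 to 47.1) above N in S and 7.32-fold (2.17 to 38.4) in B. Dcn was instead highest in N (0.44, against 0.386 in S and 0.123 in B). Over 8 melanocyte markers the sums were 2.41, 35.5 and 17.7, nearly all from Mitf (2.08, 34.4 and 16.4), while Dct, Tyr and Pmel stayed below 0.6. The part of either cell type in the Hox levels was not tested. Over 6 dermal papilla markers the sums were 5.57, 0.276 and 1.99, mainly from Rspo3 (5.52, 0.0459 and 1.04). Over 8 immune markers they were 22, 11.0 and 9.10, led by H2-Aa (13.5, 4.51 and 4.81). None of 7 markers of endothelium and muscle or of 4 Schwann cell markers was measured. All 9 bulge markers were measured, and 8 were higher than in N by the size rule in each bulge library, Lgr5 among them (1.05, 40.8 and 36.5). The exception was Krt15 in B and Tcf7l1 in S, each above N by less than the rule asks. Both sets of 8 include Cd34, on which the cells were sorted, so its difference was set by the sort. Of 6 keratinocyte markers, 1 was below N in B and 3 in S by the size rule. By the same rule 3 were lower in S than in B, with Krt14 at 588, 12.7 and 277. For comparison with these marker counts, 7.27% of all measured genes were higher and 7.1% lower in B than in N. The shares were 9.56% and 10.9% in S against N, and 5.93% were lower in S than in B.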

How the data were processed

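The 3 populations of sorted epidermal cells gave 1 library each, amplified from poly(T) and random primers and sequenced with paired reads of 75 bp, per the labels' protocols. The authors deposited FPKM values per Ensembl gene with positions. The column header says FPKM for N and S and names the population for B, whose unit was taken from its values. The submitters' processing notes name TopHat2 2.0.12, Cufflinks 2.1.1, DESeq2 and mm10, with no role for any of them. For the annotation and the read filters, the sources used here give nothing.

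Symbols came from GENCODE M21 (49195 of 49452 rows), and rows of 1 symbol were summed. Scaling factors were medians of ratios to the geometric mean, taken across the 18559 genes with a value above 0 everywhere (N 1.10, S 0.923, B 0.981), and each library was divided by its own. The log2 ratio used a pseudocount of 1, which understates differences of low genes, and a size rule of at least 1 (2-fold). A gene is measured at a mean of at least 1. Groups had 1 library, so no p-value or SE was computed. Depth follows from the smallest steps of FPKM among long single-exon genes (3000 bp or more), where 95.7% to 97.2% of values under 10 fragments lay within 0.1 of a whole fragment. Fragments per gene are estimates (FPKM times exon length times depth, somewhat high because the effective length is shorter), and the 95% intervals of ratios are exact Clopper-Pearson intervals. Reads from genes that share exon bases, 10 of the 39 at 10% or more, cannot be separated. Hox genes of at least 1 in any library are named with their values, the rest by count and by name. Some genes that meet these rules are not reported here; counts, sums and medians include them. Of other lists, members with the largest ratios and the most abundant are named. Others of these lists, such as Ezh2, Meis1, Rarg and the defining markers of other cell types, were named after their values were seen. The members and gene lists were chosen with earlier results of these data known. The size rule was tested on simulated data. Other scalings, pseudocounts, filters and size rules were tried. Python 3.11.15, numpy 2.4.6, pandas 2.3.3, scipy 1.17.1 and matplotlib 3.10.9 were used.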

Additional observations from a re-analysis of the deposited data

How the results depend on the processing

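No paired analysis was possible because each population has 1 library, and for the same reason no library could be left out. The total of S is dominated by 1 mitochondrial gene, and with all libraries rescaled to the same total the median log2 ratio of all genes was -1.4 in S against N and -1.6 in S against B. Under it 11 Hox genes were higher in B than in N, 2 were higher and 2 lower in S than in N (median 0.21), and 11 were lower in S than in B (median -1.26). The S against B ratio reversed to a size of at least 1 for Hoxa5 (-1.38), Hoxa6 (-1.06), Hoxa7 (-1.84), Hoxb9 (-1.24), Hoxc6 (-1.28) and Hoxc13 (-1.29). The S against N ratio did so for Hoxa7 (-1.47). Other ratios changed sign below that size. Among them were S against N for Hoxa2 (-0.37), Hoxa3 (-0.38), Hoxa5 (-0.96) and Hoxb2 (-0.30), and S against B for Hoxa9 (-0.14). The sums in N, S and B became 33.8, 13.9 and 56.2 for Hoxa, 8.08, 10.4 and 26.8 for Hoxb, and 4.76, 8.24 and 33.5 for Hoxc, and 5.98 in S and 12.1 in B for Hoxd. Rescaling to the same total without mitochondrially encoded genes, an alternative chosen after seeing the data, left 1 Hox gene lower in S than in B and gave a median log2 ratio of all genes of 0.19 in B and 0.15 in S against N. With values as deposited the sums were 25.2 in N and 32.2 in S for Hoxa, 6.02 and 24.1 for Hoxb, and in S 19.1 for Hoxc and 13.8 for Hoxd, and Hoxb7 in B against N was at 0.94, under the size rule. A pseudocount of 0.1 gave 11 higher in B than in N (median 1.68), a median of 2.18 in S against N, and 2 higher and 1 lower in S against B. With no filter the medians were 0.18, 0.24 and 0.00 in B against N, S against N and S against B, with 1 gene higher in S than in B. A mean of at least 5 left 6 genes, with 4 higher in each bulge library than in N, and a log2 ratio of at least 2 left 3 higher in B and 5 in S. Both test fewer genes or ask for a larger ratio. Without genes that share exon bases, the sums in N, S and B were 6.38, 12.6 and 8.94 for Hoxa and 4.49, 24.1 and 14.6 for Hoxb, and 13.7 in S and 6.27 in B for Hoxd. Of 240 ratios of single Hox genes under 4 other settings, 189 kept their call of higher, lower or neither by the size rule. A ratio called neither could change sign and still count among the 189, as for Hoxa5 in S against N (0.59 to -0.96 under the same total). For the remaining changes the cause was not tested.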
